A study of Mus musculus with 6 samples.

Results

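The microRNA genes and microRNA host transcripts of mouse left ventricles were followed through RNA immune-precipitation with sequencing (RIP-seq), in which an antibody captures a protein with its bound RNA. Members were chosen by name and by measured FPKM, as entries of the tables of single libraries with a microRNA or let-7 gene name (names ending in hg, for host gene, included) whose FPKM was above 0 in at least 2 of the 6 libraries. FPKM relates the fragments of an entry to its length and to the depth of the library. Of 46165 entries, 1063 had such a name, 26 of these were above 0 in at least 1 library, and 15 were members. The members comprised 6 host transcripts (Mir22hg, Mir99ahg, Mir143hg, Mir17hg, Mir124a-1hg and Mir124-2hg), 6 entries annotated as microRNA (Mir6236, Mir6240, Mir8114, Mir686, Mir8097 and Mir1894) and 3 entries with a microRNA name whose identifier GENCODE annotates as a snoRNA (Mir1949 and Mir3068) or a scaRNA (Mir1839).

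Male mice aged 10 weeks were used in 3 groups of 2 mice, and every group was immunoprecipitated with normal IgG and with anti-EZH2. Sham mice received saline according to the protocol, although their treatment label reads untreated, and AngII 4 h and AngII 24 h mice received angiotensin II from a subcutaneous osmotic minipump at 1 mg/kg/min for 4 or 24 h. The strain label was C57BL/6 for all IgG libraries and for Sham anti-EZH2, C57BL/7 for AngII 4 h anti-EZH2 and C57BL/8 for AngII 24 h anti-EZH2, so that the label of strain differed between the antibodies of the treated groups. Because 2 RIP products were mixed into each library, a combination of group and antibody had 1 library, and the ratios below have no replicate check.

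A microRNA is cut out of a longer primary transcript, first as a hairpin precursor by the nuclear enzyme Drosha and then as a short duplex by Dicer, and 1 strand is loaded into an Argonaute protein. The seed, bases 2 to 8 of the mature microRNA, pairs with target mRNAs. A host transcript is the longer RNA that carries 1 or more precursors, and it can persist as a long non-coding RNA. EZH2 is the catalytic subunit of Polycomb repressive complex 2, which methylates histone H3 and is known to bind many RNAs. In the heart, miR-22 is an abundant microRNA known for a role in hypertrophy, and miR-143 and miR-145 belong to smooth muscle cells.

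The mature sequences of Mir6236, Mir6240, Mir8114 and Mir686 are given here, with those of some microRNAs carried by Mir22hg, Mir99ahg and Mir17hg. The values below belong to the whole entries, which are longer, and not to the mature sequences. The sequences were taken from RefSeq (GRCm38.p6), are written 5′ to 3′, and have the seed in capitals.
miR-6236 (chr9:110281353-110281371, plus strand): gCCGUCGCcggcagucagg
miR-6240 (chr5:114851973-114851998, plus strand): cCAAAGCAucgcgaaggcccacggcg
miR-22-5p (from Mir22hg, chr11:75463734-75463755, plus strand): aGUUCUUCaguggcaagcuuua
miR-22-3p (from Mir22hg, chr11:75463772-75463793, plus strand): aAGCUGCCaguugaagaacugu
miR-99a-5p (from Mir99ahg, chr16:77598940-77598961, plus strand): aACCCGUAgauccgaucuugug
let-7c-5p (from Mir99ahg, chr16:77599672-77599693, plus strand): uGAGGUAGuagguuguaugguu
miR-125b-5p (from Mir99ahg, chr16:77646279-77646300, plus strand): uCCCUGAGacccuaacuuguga
miR-17-5p (from Mir17hg, chr14:115043684-115043706, plus strand): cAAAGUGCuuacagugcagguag
miR-20a-5p (from Mir17hg, chr14:115044183-115044205, plus strand): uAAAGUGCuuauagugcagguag
miR-19a-3p (from Mir17hg, chr14:115044048-115044070, plus strand): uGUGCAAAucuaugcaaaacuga
miR-19b-3p (from Mir17hg, chr14:115044358-115044380, plus strand): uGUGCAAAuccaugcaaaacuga
miR-8114 (chr1:153899989-153900009, plus strand): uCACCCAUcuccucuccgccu
miR-686 (chr14:54616746-54616767, minus strand): aUUGCUUCccagacggugaaga

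Between them, the members other than Mir1949 and Mir143hg had 28 different mature sequences in RefSeq, with 26 different seeds. Only miR-17-5p with miR-20a-5p (AAAGUGC) and miR-19a-3p with miR-19b-3p (GUGCAAA) shared a seed, and all 4 belong to Mir17hg. The seeds of miR-6236 (CCGUCGC) and miR-6240 (CAAAGCA) matched none of the others. RefSeq held no mature sequence for Mir8097, Mir124a-1hg or Mir124-2hg under the names used. The hairpin of Mir6240 is shown because its predicted fold was less stable per nt than that of most microRNA precursors, with the mature sequence in capitals.
Mir6240 hairpin (chr5:114851948-114852064, plus strand): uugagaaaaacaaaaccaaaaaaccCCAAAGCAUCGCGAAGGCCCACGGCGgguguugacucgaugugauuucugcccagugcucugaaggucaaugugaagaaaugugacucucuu
Its predicted minimum free energy was -24.7 kcal/mol over 117 nt, or -0.211 kcal/mol per nt, against a median of -0.406 over 1005 mouse hairpins of RefSeq. Only 1.39% of those hairpins were less stable per nt. Their median length was 79 nt, and the comparison was not matched for length. Mature miR-6236 had a GC content of 78.9% and miR-6240 of 69.2%, and neither sequence occurred in a transcript of another gene of GENCODE M21. No sequence of the long nuclear-encoded ribosomal RNAs was available to this search, so it could not find a match to them.

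The depth of the libraries, inferred from the intervals that the tables give with each FPKM, ranged between 3816352 and 7984443 fragments. Where an FPKM came to a whole number of reads (to within 0.05 reads), the reads were recovered, which held for 30 of the 63 member values above 0. Cardiomyocyte markers (8 of 8) were above 0 in all libraries, with summed FPKM between 5418 and 9599. Of the atrial markers, Sln was at 0 in every library, and the sum of the list was 18.8 FPKM with anti-EZH2 and 23.8 with IgG in Sham but at most 1.05 in the AngII libraries. The part of this difference between Sham and AngII in the results was not tested. Sums were 10.3 to 24.9 FPKM for endothelial, 42.2 to 64.5 for fibroblast, 2.40 to 7.54 for smooth muscle, 11.2 to 19.6 for macrophage and leukocyte, and 583 to 1451 for erythroid markers, and 1 adipose marker reached 0.521 FPKM in 1 library. The mRNAs of Ezh2, Eed and Suz12 were above 0 in all libraries and summed to between 2.08 and 7.24 FPKM. In whole ventricle, fewer cells of a type and less RNA per cell cannot be told apart.

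Detection depended on length. None of the 461 entries under 80 nt, leaving out hosts, had an FPKM above 0 in any library, against 5 of 364 entries of 80 to 99 nt and 14 of 231 entries of 100 nt or more. The median length was 82 nt over all 1056 entries that are not hosts and 119 nt over the 9 members among them, which ranged from 81 to 141 nt. A single read of an entry of 60 nt was worth between 446 and 883 FPKM, and of an entry of 120 nt between 26.4 and 54.7 FPKM. The shortest fragment allowed was inferred as 33 or 34 nt, which is longer than the mature sequences of miR-6236 (19 nt) and miR-6240 (26 nt). It was the length at which the most values of entries under 200 nt became whole reads, between 48.1% and 69.0%, with an assumed distribution of fragment lengths. If this inferred length holds, a mature microRNA alone was shorter than any fragment counted.

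**Figure D1:**
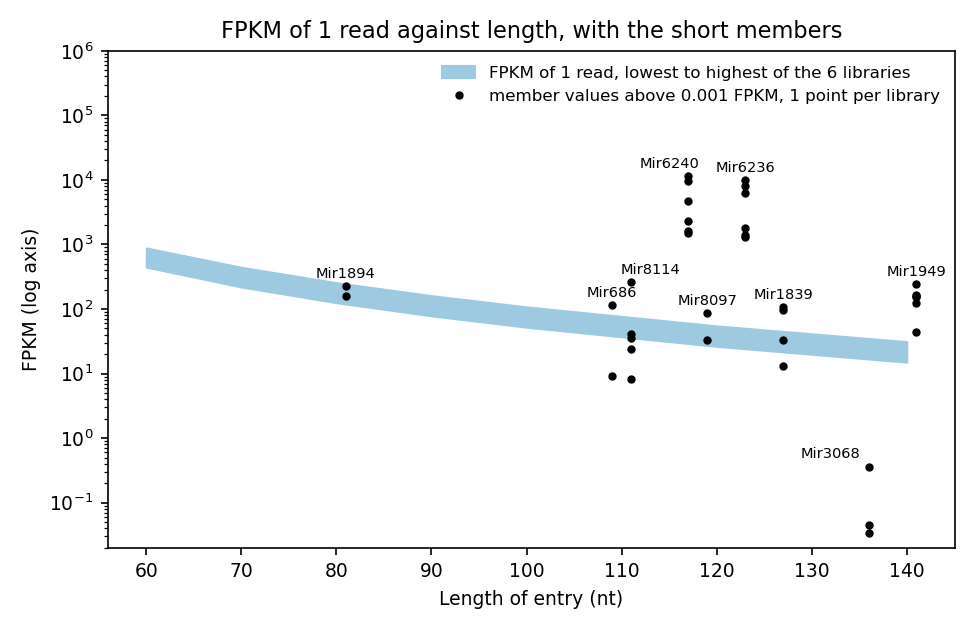
FPKM (log axis) against the length of the entry in nt. The band spans the FPKM of 1 read over the 6 libraries, and each point is 1 library of a member that is not a host (values of 0.001 FPKM or less are not drawn). Mir6236 and Mir6240 lie far above the band, whereas Mir8114, Mir686, Mir8097, Mir1894 and Mir1839 lie near it and Mir3068 lies below it.

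The microRNAs best known from the heart were not among the members. All 9 entries found from the heart and muscle list (miR-1, miR-133, miR-206, miR-208 and miR-499 genes) and all 7 entries of microRNAs known to target the Ezh2 mRNA (miR-26, miR-101 and miR-138 genes) were listed at 0 in every library. Of 27 entries for hypertrophy, fibrosis and stress microRNAs, Mir22 and Mir214 were above 0, each in 1 library, as were Mirlet7c-1 among 9 let-7 entries and Mir142hg among 9 vascular and blood entries. Together these lists named 71 genes, of which 61 had an entry, 4 were above 0 in any table of a single library and 0 were members. In the series table, which gives other FPKM for the same libraries, Mir24-2, Mir29b-1 and Mir34a were above 0, with values given further below. The tables mark 14 of the 61 entries, Mir22 and Mir214 among them, as having too little data for an estimate. Most entries listed at 0 do not carry this mark, but detection depended on length, so that a listed 0 is no measured absence. Some entries at 0 without this mark, such as Mir1b (122 nt) and Mir486 (128 nt), were within the length range of the members that are not hosts. The protein-coding gene Myh6, which carries Mir208a in an intron, had between 526 and 1050 FPKM, and Egfl7, which carries Mir126a, between 5.79 and 16.0 FPKM, while both microRNA entries were at 0.

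With the rule set at 2 libraries, 5 members were just inside it (Mir124-2hg, Mir124a-1hg, Mir17hg, Mir1894 and Mir8097), with values between 0.0321 FPKM (Mir124a-1hg, AngII 4 h anti-EZH2, 1 read) and 224 FPKM (Mir1894, AngII 4 h anti-EZH2). Another 11 entries with a value in 1 library were just outside, and these ranged from 2.34 FPKM (Mir142hg, 1 read) to 264 FPKM (Mir22). At the other end, Mir6236, Mir6240, Mir1949, Mir22hg and Mir99ahg were above 0 in all 6 libraries.

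**Figure D2:**
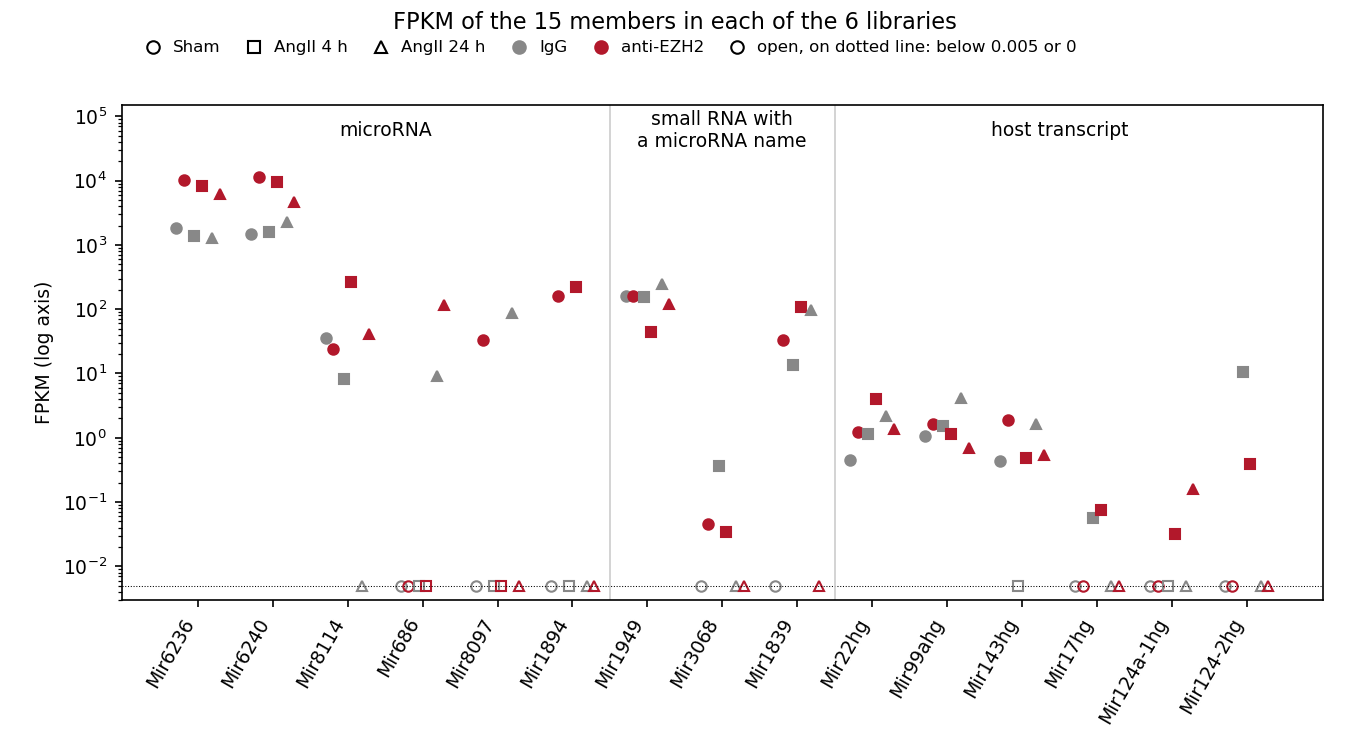
FPKM (log axis) of the 15 members, 1 point for each library, with grey for IgG, red for anti-EZH2, and circles, squares and triangles for Sham, AngII 4 h and AngII 24 h. Open symbols on the dotted line are values below 0.005 FPKM or at 0. Red lies above grey in every group for Mir6236 and Mir6240 only.

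In the tables of single libraries, Mir6236 and Mir6240 were the most abundant members and the only members above an anti-EZH2/IgG ratio of 2 in all 3 groups. In the series table, which gives other FPKM for the same libraries, Mir8114 was above 2 in all 3 groups too. Both lie between genes, Mir6236 (ENSMUSG00000098973, chr9:110281287-110281409) at 7543 nt from the lincRNA Gm42775 and Mir6240 (ENSMUSG00000098343, chr5:114851948-114852064) at 1600 nt from the protein-coding gene 4930519G04Rik.

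With IgG, Mir6236 had 1824 FPKM in Sham, 1393 after 4 h of AngII and 1300 after 24 h, which correspond to 41, 38 and 26 reads. With anti-EZH2 it had 10107, 8155 and 6283 FPKM, or 302, 338 and 156 reads. All anti-EZH2 values were above all IgG values, and Sham was the highest with both antibodies. The anti-EZH2/IgG ratio came to 5.54 in Sham (exact Clopper-Pearson 95% interval 3.99 to 7.88), 5.86 after 4 h of AngII (4.18 to 8.42) and 4.83 after 24 h (3.18 to 7.63). Intervals cover counting error only, and those of the 3 groups overlapped. In the series table, which gives other FPKM for the same libraries, the ratio of Mir6236 was 3.93 in Sham, 10.6 after 4 h of AngII and 9.0 after 24 h. The ratio was thus above 2 in every group in both tables, but only the series table had a lower ratio in Sham than in both AngII groups.

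Mir6240 had 1499, 1587 and 2283 FPKM with IgG (28, 36 and 38 reads) and 11580, 9607 and 4699 FPKM with anti-EZH2 (288, 331 and 97 reads), in the same order of groups. The anti-EZH2 libraries were again above all IgG libraries, but the AngII 24 h libraries lay closest together. The ratio for Mir6240 reached 7.73 in Sham (5.23 to 11.8), 6.05 after 4 h of AngII (4.28 to 8.79) and 2.06 after 24 h (1.40 to 3.08). The interval at AngII 24 h did not overlap with those of the other groups, and it included 2.

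Across treatment, the anti-EZH2 level of Mir6236 relative to Sham was 0.807 at AngII 4 h (0.689 to 0.946) and 0.622 at AngII 24 h (0.509 to 0.757). That of Mir6240 was 0.830 (0.706 to 0.975) and 0.406 (0.319 to 0.513). With IgG the intervals of all 4 ratios to Sham included 1, with 0.763 and 0.713 for Mir6236 and 1.06 and 1.52 for Mir6240. In these tables both entries were lower with anti-EZH2 at AngII 24 h than in Sham beyond counting error, without a replicate to give the spread between mice. The series table did not show this. With anti-EZH2, Mir6240 had 4539 FPKM in Sham and 6612 FPKM at AngII 24 h there, a ratio of 1.46 and the opposite direction to 0.406. Mir6236 had 2808 and 2742 FPKM, a ratio of 0.976. The median ratio of AngII 24 h to Sham with anti-EZH2 over entries above 1 FPKM in all libraries was 1.53 in the series table (2568 entries) and 0.959 in the tables of single libraries (4852 entries), and the part of this difference in scale was not tested. The direction across treatment hence differed between the tables for Mir6240.

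**Figure D3:**
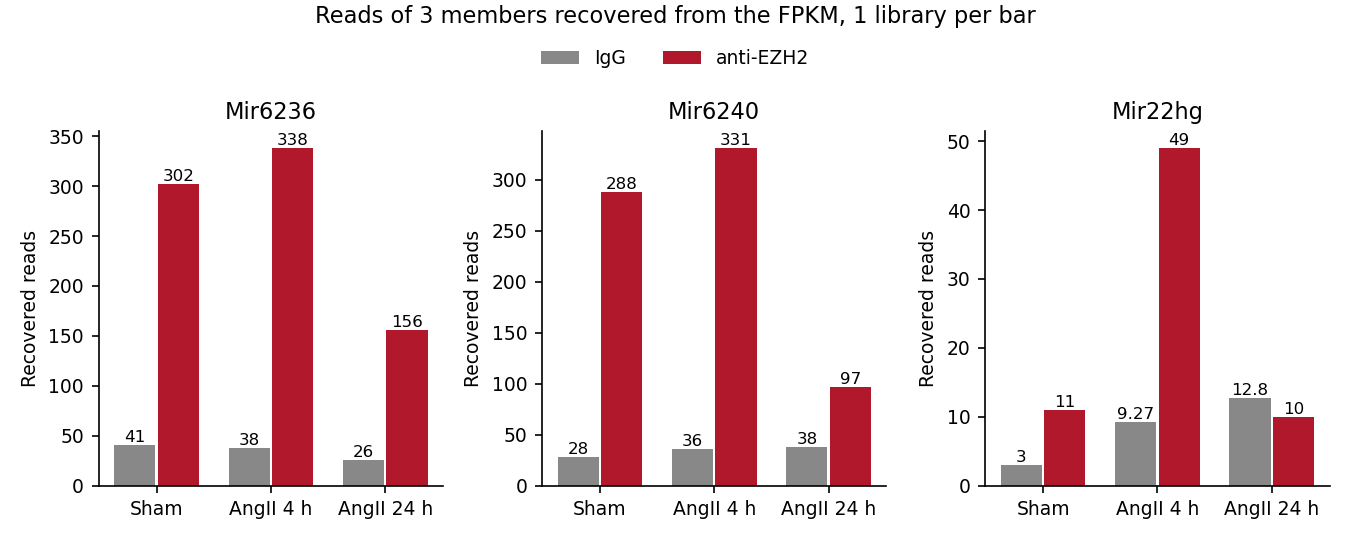
Reads recovered from the FPKM (y axis, starting at 0) of Mir6236, Mir6240 and Mir22hg in each library (9.27 and 12.8 are estimates that were not whole), with grey bars for IgG and red bars for anti-EZH2, not scaled to depth. Mir6236 had 302 reads with anti-EZH2 in Sham but 156 at AngII 24 h, Mir6240 had 288 and 97, and Mir22hg had 49 reads at AngII 4 h anti-EZH2 against 3 to 12.8 in the others.

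The ratios of short RNAs as a whole moved between the groups, and these values stand beside those of Mir6236 and Mir6240. Entries under 200 nt, leaving out those annotated as rRNA, had a median anti-EZH2/IgG ratio of 1.43 in Sham (399 entries), 1.32 after 4 h of AngII (450) and 0.404 after 24 h (346). Of those measured at AngII 24 h, 65.6% were under 0.5 and 5.78% above 2. Against all entries under 200 nt, the ratio of Mir6236 was exceeded by 11.4% in Sham, 4.89% after 4 h of AngII and 1.49% after 24 h, and that of Mir6240 by 5.62%, 4.31% and 4.70%. Against all entries of any length, that of Mir6236 was exceeded by 3.90%, 2.62% and 2.68%, and that of Mir6240 by 2.43%, 2.42% and 9.07%. At AngII 24 h Mir6240 thus ranked lower than in Sham among all entries but not among short ones, and Mir6236 ranked higher than in Sham among both. The part of the short RNAs as a whole in the lower ratio of Mir6240 at AngII 24 h was not tested.

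A ratio above 2 in all 3 groups was found for 1.19% of 7055 entries measured with both antibodies throughout, and for 2 of the 5 members so measured, whereas a ratio under 0.5 in all groups was found for 1.28% of entries and 0 members. Among entries under 200 nt, 6 of 353 (1.7%) were above 2 in all groups. Besides Mir6236 and Mir6240, these 6 were the snRNA Gm24641, the snoRNA Snord32a, the mitochondrial tRNA mt-Ts1 and the rRNA n-R5-8s1, which were named after their values were seen. The entry n-R5-8s1 stands for the 5.8S rRNA of the large ribosomal subunit. Its ratio was 56.6 in Sham, 8.16 after 4 h of AngII and 3.21 after 24 h. The ratios of Mir6240 and mt-Ts1 also descended in this order of groups, whereas those of Mir6236, Gm24641 and Snord32a did not. The 5S rRNA entry Rn5s had ratios of 1.26, 1.48 and 0.284. Whether reads of Mir6236 and Mir6240 came from rRNA or from other sequence that resembles these entries was not tested.

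Apart from Mir6236 and Mir6240, the 7 members that are not hosts lay in an exon of another annotated gene on the same strand. That was the case for 23.2% of the 1056 microRNA entries that are not hosts and for 77.8% of the 9 members among them. Reads there can be divided between the entries by the program that made the FPKM, and many of the values were fractions of a read.

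Mir8114 overlaps by 93 of its 111 nt an exon of Glul, the glutamine synthetase gene, and its mature sequence occurs in transcripts of Glul. It had 35.8, 8.12 and 0 FPKM with IgG and 24.2, 265 and 40.7 FPKM with anti-EZH2 in Sham, AngII 4 h and AngII 24 h. Only the value at AngII 4 h anti-EZH2 exceeded 1 read (7.51), and the others were between 0 and 0.691 reads. The ratio was 0.675 in Sham and 32.7 at AngII 4 h, against 2.10 and 7.20 in the series table, and it was not calculated at AngII 24 h. Glul itself had between 30.6 and 77.6 FPKM, and its AngII 4 h values of 60.2 with IgG and 54.5 with anti-EZH2 were close to each other.

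Mir686 lies within an exon of Psmb5, which encodes a proteasome subunit. Its 115.9 FPKM at AngII 24 h anti-EZH2 corresponded to 1.84 reads and its 9.24 FPKM in the IgG library of that group to 0.118 reads, while it was below 0.001 FPKM elsewhere. The ratio of 12.5 at AngII 24 h therefore rests on less than 2 reads. Mir1894 lies in an exon of Ppp1r10, which encodes a regulator of protein phosphatase 1, and was found with anti-EZH2 only, with 158 FPKM in Sham (1 read) and 224 FPKM at AngII 4 h (1.88 reads). Mir8097 lies in an exon of Rnf19a, a ubiquitin ligase gene, and had 33.5 FPKM in Sham anti-EZH2 (0.886 reads) and 87.0 FPKM at AngII 24 h IgG (1.54 reads), and 0 in the other 4 libraries.

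Mir1949, annotated as a snoRNA at this identifier, alone among the 3 small RNAs with a microRNA name was above 0 in every library. It had 162, 153 and 243 FPKM with IgG and 161, 43.9 and 122 FPKM with anti-EZH2. The values correspond to between 3 and 8 reads, and they overlapped between antibodies. The ratio was 0.994 in Sham, 0.288 after 4 h of AngII and 0.502 after 24 h, the last with an interval of 0.129 to 1.74. Of the 5 members measured in every group, Mir1949 was the only 1 with no anti-EZH2 value above the IgG value of its group.

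Mir1839 (a scaRNA at this identifier, in an exon of the lincRNA 2900076A07Rik) had 0, 13.3 and 95.9 FPKM with IgG and 32.6, 108 and 0.000761 FPKM with anti-EZH2. The direction differed between the groups, with a ratio of 8.12 at AngII 4 h and a value near 0 at AngII 24 h anti-EZH2 against 2.16 reads with IgG. No library had more than 5 reads (5 at AngII 4 h anti-EZH2). The overlapping lincRNA was even, with between 2.30 and 3.37 FPKM in all 6 libraries. Mir3068 had at most 0.364 FPKM, in AngII 4 h IgG, whereas the lincRNA Gm29362 that overlaps it had 110 FPKM there and 176 FPKM in Sham anti-EZH2. For Mir1949, Mir1839 and Mir3068, GENCODE also has a separate, overlapping identifier annotated as a microRNA. Each of those entries was at 0 or below 0.001 FPKM in every library.

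Mir22hg, the host transcript of miR-22, is annotated as a processed transcript of 1752 nt (ENSMUSG00000085148, chr11:75461539-75466676, plus strand), and both arms of miR-22 printed above lie in its exons. Mir22hg had 0.447, 1.14 and 2.16 FPKM with IgG and 1.24, 3.96 and 1.35 FPKM with anti-EZH2 in Sham, AngII 4 h and AngII 24 h. In reads these were 3, 9.27 and 12.8 with IgG and 11, 49 and 10 with anti-EZH2, of which 9.27 and 12.8 were not whole and are estimates. The value at AngII 4 h anti-EZH2 was the highest of Mir22hg.

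The anti-EZH2/IgG ratio of Mir22hg was 2.78 in Sham (0.735 to 15.5), 3.48 after 4 h of AngII and 0.624 after 24 h. It was above 2 in Sham and at AngII 4 h, but the Sham interval included 1. Relative to Sham, Mir22hg was 3.18-fold higher at AngII 4 h with anti-EZH2 (1.63 to 6.79) and 2.55-fold higher with IgG. It was 1.08-fold Sham at AngII 24 h with anti-EZH2 (0.413 to 2.81) and 4.84-fold higher with IgG. Mir22hg was the only 1 of 6 members measured in all 4 libraries that was more than 2-fold above Sham with both antibodies at AngII 4 h, against 5.6% of 7765 entries higher and 3.13% lower. At AngII 24 h, 0 of 6 members were more than 2-fold above or below Sham with both antibodies, against 3.92% and 3.62% of 7346 entries.

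The separate entry for the Mir22 hairpin, which lies inside Mir22hg, was above 0 only at AngII 4 h IgG, with 264 FPKM or 2.73 reads. The 9.27 reads of Mir22hg and the 2.73 reads of Mir22 sum to 12.0 in that library, a whole number. At AngII 24 h IgG, Mir22hg had 12.8 reads, not whole, while Mir22 was at 0. Mir22hg also shares 206 nt of exon with the protein-coding gene Tlcd2 on the same strand. Tlcd2 had 0.209 FPKM at AngII 4 h IgG and 0.827 FPKM at AngII 24 h IgG, and its part in the reads of Mir22hg was not tested. In the series table, Mir22hg had 222 FPKM in AngII 4 h IgG and its ratio there was 0.00672, the opposite direction to 3.48. Its anti-EZH2 level at AngII 4 h relative to Sham was 1.00 there, against 3.18, and its ratio in Sham was 5.76, against 2.78. The direction of Mir22hg at AngII 4 h hence differed between the tables, and the part of the reads of the hairpin in this was not tested.

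Mir99ahg, the host of miR-99a, let-7c and miR-125b (17 transcripts, chr16:77236317-77691403), had 1.06, 1.55 and 4.13 FPKM with IgG and 1.64, 1.15 and 0.700 FPKM with anti-EZH2. From Sham to AngII 24 h, each IgG value was above the one before and each anti-EZH2 value below it. The ratio was accordingly 1.54 in Sham, 0.745 after 4 h of AngII and 0.169 after 24 h, and 0.0762 at AngII 24 h in the series table. The Mirlet7c-1 entry inside it had 1 read, in Sham IgG. Reads could not be recovered for a gene of many transcripts, so no interval is given.

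Mir143hg, named Carmn in GENCODE, is the host of miR-143 and miR-145 on chromosome 18. It had 0.440, 0 and 1.67 FPKM with IgG and 1.87, 0.477 and 0.531 FPKM with anti-EZH2. The ratio was 4.24 in Sham, from 3 IgG reads, and 0.319 at AngII 24 h (4 against 10 reads, interval 0.0731 to 1.11). At AngII 4 h the IgG library had 0 reads and the anti-EZH2 library 6, so no ratio is given. The direction in Sham was opposite to that at AngII 24 h, as for Mir99ahg. Smooth muscle markers summed to 6.52, 7.54 and 6.14 FPKM with IgG and 5.10, 5.20 and 2.40 FPKM with anti-EZH2, and their part in Mir143hg was not tested.

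The other host transcripts were at 0 in 4 of the 6 libraries each. Mir17hg, which carries the growth-promoting cluster of miR-17, miR-18a, miR-19a, miR-20a, miR-19b and miR-92a, had 1 read at AngII 4 h IgG and 2 reads at AngII 4 h anti-EZH2, with a ratio of 1.32 (0.0685 to 77.7). Hosts of the neuronal microRNA miR-124 were found in AngII libraries only. Mir124a-1hg had 1 read at AngII 4 h and 3 reads at AngII 24 h, both with anti-EZH2, and 0 in the other libraries. Mir124-2hg had 10.7 FPKM at AngII 4 h IgG, the highest host value of all, against 0.388 FPKM with anti-EZH2 in that group and 0 elsewhere, a ratio of 0.0362 (0.0693 in the series table). By its longest transcript these came to an estimated 205 and 11.3 reads, neither whole, for a gene of 7 transcripts.

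Counted together, 4 of the 7 members measured with both antibodies had a ratio above 2 in Sham, 5 of 8 at AngII 4 h and 3 of 8 at AngII 24 h. A ratio above 2 was found for 14.3%, 12.9% and 9.44% of all entries measured, and for 36.5%, 24.1% and 5.2% of those under 200 nt. A ratio under 0.5 was found for 0, 2 and 3 members in the same order, against 22.7%, 14.4% and 35.8% of all entries and 9.5%, 6.65% and 68.3% of those under 200 nt. The members above 2 were different ones apart from Mir6236 and Mir6240, with Mir22hg and Mir143hg in Sham, Mir22hg, Mir8114 and Mir1839 at AngII 4 h and Mir686 at AngII 24 h. Several of these rest on less than 10 reads, as given above.

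**Figure D4:**
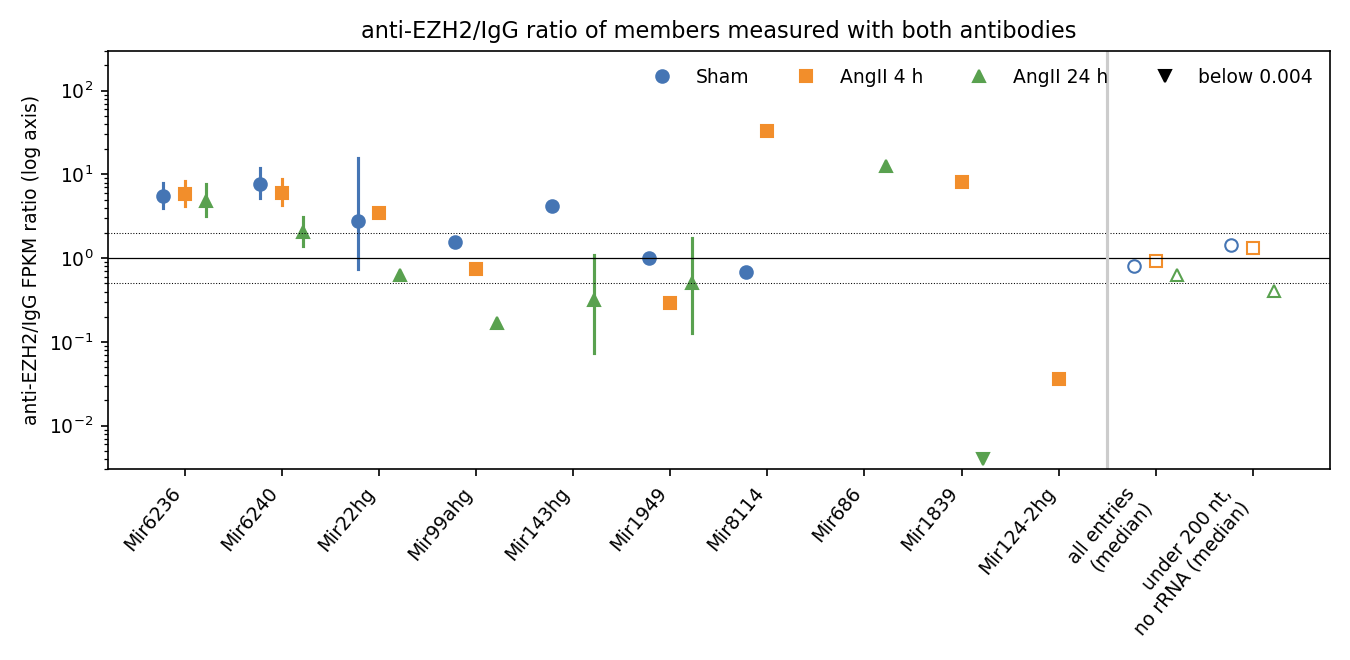
anti-EZH2/IgG FPKM ratio (log axis) of members measured with both antibodies in Sham, AngII 4 h and AngII 24 h. Lines are exact 95% intervals where reads could be recovered in both libraries, dotted lines mark 0.5 and 2, and open symbols at the right are medians over all entries and over entries under 200 nt that are not rRNA. Mir6236 stays between 4.83 and 5.86, Mir6240 is at 2.06 at AngII 24 h, and the medians are lowest at AngII 24 h.

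The only comparison with more than 1 library on each side was that of the 3 anti-EZH2 against the 3 IgG libraries, fitted over 8658 entries with limma on log2(FPKM + 1) with the treatment group as a block. Of 11 members tested, 0 had a Benjamini-Hochberg adjusted p under 0.05. Over all entries 2 were higher with anti-EZH2 (0.0231%) and 0 were lower. An unadjusted p under 0.05 was found for 6.51% of all entries, with Mir6236 and Mir6240 among them. Mir1894 was at 0 with IgG and could enter the fit only through its anti-EZH2 values of 1 and 1.88 reads, so its direction was set by selection and no test of it is given. The 2 entries that passed, Gm17428 and Gm23991, were likewise at 0 in all IgG libraries and are no microRNA entries.

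Mir6236 was higher with anti-EZH2 by 2.43 ± 0.243 (SE) on this log2 scale, in 3 of 3 groups (limma adjusted p = 0.610, unadjusted p = 0.000423). Mir6240 was higher by 2.20 ± 0.467, in 3 of 3 groups (limma adjusted p = 0.653, unadjusted p = 0.00812). The differences were 0.47 ± 0.407 for Mir22hg and -0.49 ± 0.462 for Mir99ahg, each little above its SE (limma adjusted p = 0.686 and 0.706). Over all entries the median difference was -0.24.

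The mRNAs of most of the proteins that make microRNAs were detected. Of 24 microRNA processing genes found, 22 were above 0 in all 6 libraries, and Lin28a and Lin28b, which block let-7 maturation in early cells, were at 0. Of the 12 tested with limma, 0 passed, but only 2 of 8658 entries (0.0231%) passed at all, so this count says little. Their median difference was -0.06 on the log2 scale, beside -0.24 over all entries. Drosha had between 1.96 and 4.27 FPKM, Dicer1 between 0.239 and 0.489 FPKM, and the Argonaute gene Ago2 between 0.532 and 1.25 FPKM.

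Protein-coding and other hosts of microRNAs (39 genes) were above 0 in all libraries for 33. A ratio above 2 was found for 2 of 28 in Sham, 2 of 30 at AngII 4 h and 3 of 25 at AngII 24 h. Over all entries measured, the shares above 2 were 14.3%, 12.9% and 9.44%. A ratio under 0.5 was found for 4, 5 and 7 of these hosts, beside 22.7%, 14.4% and 35.8% of all entries. Their median ratio was 0.822, 0.725 and 0.589, beside 0.806, 0.929 and 0.638 over all entries measured. H19, the imprinted lncRNA that carries miR-675, had 5.00, 4.67 and 3.83 FPKM with IgG and 2.81, 1.49 and 1.49 FPKM with anti-EZH2, so that its IgG values were all above its anti-EZH2 values. With limma 0 of 26 tested hosts passed, beside 0.0231% of all entries. H19 was among the tested hosts (difference -0.93 ± 0.259, limma adjusted p = 0.653).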

How the data were processed

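Stranded RIP-seq libraries were prepared by the authors from 2 mixed RIP products each and mapped to the mouse genome (mm10) with TopHat2, as named in the submitters' processing notes. The authors deposited FPKM as tables of single libraries and as 1 table of the series, and the program that made them is not given in the sources used here. The tables of single libraries, whose columns are those of a Cufflinks gene table, were used throughout, and the series table (9 of the 15 members, 44382 rows) served as an alternative. Annotation was GENCODE M21 (GRCm38, the same assembly as mm10) and RefSeq (GRCm38.p6), both by identifier or symbol.

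The anti-EZH2/IgG ratio was calculated without a pseudocount for entries above 0 in both libraries and above 1 FPKM in the higher one, and was called above 2 or under 0.5. Each library's fragment total was inferred from the upper bounds of the FPKM intervals, of which between 91.2% and 94.3% became whole reads (to within 0.02 reads). With a fragment length of mean 200 nt and SD 80 nt, an FPKM was converted to reads by the longest transcript, and among entries under 200 nt between 48.1% and 69.0% of the values were whole. PCR copies were not marked, so that exact Clopper-Pearson 95% intervals of the ratio of reads cover counting error only. For values that were not whole, the depth is unknown. Antibodies were compared with limma 3.58.1 in R 4.3.3 on log2(FPKM + 1), which understates the change of low entries, over entries with a mean of at least 1 FPKM, leaving 2 residual degrees of freedom. The p-values measure the spread between 3 pairs of different treatments. Samples of 1 group were not available as replicates. Hairpins were folded with ViennaRNA 2.7.2. The steps were tested on simulated data, and other calculations used scipy 1.17.1, pandas 2.3.3, numpy 2.4.6 and Python 3.11.15.

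The members and the gene lists were chosen with earlier results of these data known. Members named in the text are those on the lists, the 10 microRNA entries and the 10 hosts highest in median FPKM, the 3 with the highest and lowest ratio of each group, and those above 0 in all libraries, which covers all 15. Alternatives were another pseudocount, no FPKM minimum, scaling to the median ratio, the series table, no block and leaving out each treatment group.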

Additional observations from a re-analysis of the deposited data

Results flagged for a closer look

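Besides the members, 5 microRNA entries at 0 in all tables of single libraries were above 0 in at least 2 libraries of the series table, with the highest anti-EZH2 value above the highest IgG value. Mir24-2 reached 2.16 FPKM with anti-EZH2 against 0.518 with IgG, Mir29b-1 reached 1.09 against 0, Mir8092 reached 0.371 against 0.150, Mir34a reached 0.164 against 0.0332, and Mir125b-2 reached 0.0923 against 0.0687. These highest values can come from different groups. At AngII 4 h, IgG was above anti-EZH2 for Mir24-2 (0.518 against 0.284), Mir34a (0.0332 against 0.0289) and Mir125b-2 (0.0687 against 0). Mir125b-2 was also higher with IgG at AngII 24 h (0.0362 against 0). Mir29b-1 and Mir8092 were higher with IgG in no group. In the tables of single libraries, 1 read was worth 220 to 443 FPKM at 70 nt and 26.4 to 54.7 FPKM at 120 nt. By that conversion, Mir29b-1 and Mir125b-2 (71 nt each), Mir34a (102 nt) and Mir24-2 (107 nt) were at small fractions of a read. All but Mir24-2 and Mir29b-1 were under 1 FPKM, the depth behind the series table is unknown, and no difference was tested.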

How the results depend on the processing

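The numbers of members above 2 or under 0.5 in Sham and at AngII 24 h, and of members lower than Sham with both antibodies, stayed within 1.5-fold under all alternatives run. With the series table, 3 members in place of 5 were above 2 at AngII 4 h, 0 in place of 1 were higher than Sham with both antibodies at AngII 4 h, and 1 in place of 0 at AngII 24 h, where a pseudocount of 1 FPKM also gave 1. The series table held only 9 of the 15 members, and Mir1839, which was above 2 at AngII 4 h, was not among them. Where the numbers stayed alike, the members counted still changed with the series table. In Sham, Mir8114 (2.10) and Mir99ahg (2.06) were above 2 there, whereas Mir143hg was under the FPKM minimum. At AngII 24 h, Mir8114 (2.45) was above 2 there, whereas Mir686 was not held. Without the FPKM minimum, 4 members in place of 2 were under 0.5 at AngII 4 h. The ratio of Mir22hg at AngII 4 h reversed to 0.00672 with the series table, as did the ratio of AngII 24 h to Sham with anti-EZH2 for Mir6240 (1.46) and that of AngII 4 h to Sham with IgG for Mir8114 (1.35). In the antibody comparison with limma, 0 members passed under every setting, including the fit with no replicate block and those leaving out a treatment group. Over all entries, 2 passed as fitted, 0 without a filter on low values, 0 after centring on the median and 4 with no replicate block, and 0 whichever treatment group was left out. The pairing of libraries is the treatment group itself, since libraries share no other number. Counting members above 0 in at least 1 library gives 26, and in all 6 libraries 5. The causes were not tested. Outside Mir6236, Mir6240 and the host transcripts, no member value rests on more than 8 reads.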
